A study of Arabidopsis thaliana with 8 samples.

Results

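AT1G48720 is a locus on chromosome 1 of Arabidopsis thaliana whose transcript signal appeared in heated seedlings and was still high 2 days later. It was read from 1 Affymetrix probe set, 256136_s_at, and is 1 of 13350 genes that had a probe set listed for them alone. It was chosen by its log2 differences between heat and mock plants on these same arrays, so its levels in heat and after recovery are a description, without a test. The suffix _s_at of the probe set marks probes that match several transcripts, so the signal may come from AT1G48720, from near-identical sequences elsewhere, or from both, and these cannot be told apart here.

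The seedlings were grown in vitro for 3 weeks at 22 °C under long days. Heated plants spent 30 h at 37 °C, starting in the light phase. One set was collected as the heat ended (no recovery) and another 2 days later, after growth at 22 °C (recovery). Mock plants were kept at 22 °C and collected at both times. Each of the 4 groups had 2 biological replicates, 8 arrays in all, of whole seedlings with no mutant or transgene named in the labels. The labels do not say whether the replicates came from separate sowings or days, so the spread between them may be partly technical.

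Copia elements are retrotransposons flanked by long terminal repeats, which copy themselves through RNA and which plants keep silent with DNA methylation, compact chromatin and small RNAs. The ATCOPIA78 family, also named ONSEN, is known in Arabidopsis for being transcribed under prolonged heat. Its long terminal repeats carry elements that heat shock factors bind. In mutants that lack the small RNA pathway its copies are known to multiply after heat. In the RefSeq gene order AT1G48720, classed as protein-coding, directly follows AT1G48710, a pseudogene that is 1 of the 8 loci of ATCOPIA78 considered here. No probe set was listed for any of these 8 loci, alone or among the 503 probe sets with several genes. The name copia-like for the transcript was therefore not checked by a second probe set, and no sequence of the probes was used here.

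In unstressed plants the signal was at or near the lowest level the arrays reported. The log2 values were 2.51 and 2.33 in the mock plants without recovery and 2.18 on both arrays of the mock plants 2 days later, where 2.18 is the lowest value in the whole table. Values under 2.3 were read as the floor of the signal. The comparison of mock plants 2 days apart sets no heated plants against others. However, the mock arrays took part in the heat differences by which the gene was chosen, which favours low mock values. The p of this comparison is therefore a description and not an independent test. The difference was -0.24 ± 0.27 (log2, SE, n = 2 arrays per group). It was not called, with an adjusted p of 0.985 in the limma fit across all probe sets, of which 0.0791% were called. The SE of this fit also draws on the heated arrays. Their SDs (n = 2) were 0.51 directly after heat and 0.21 after recovery, against 0.13 and 0 in the earlier and later mock plants. With only the mock arrays compared, the SE was 0.08 and the adjusted p 0.617 in limma. A fall hidden below the floor would not be visible, because the later mock arrays were already there.

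Directly after 30 h at 37 °C the log2 values were 9.06 and 9.78. Both heat arrays stood far above both mock arrays, and the gap between the nearest pair was 6.55 log2 units. The group means were 9.42 ± 0.51 in heat and 2.42 ± 0.13 in mock (SD, n = 2), a log2 difference of 7.0 ± 0.27 (SE), or 128-fold. In size this was number 56 among the rises of the 22746 probe sets tested. Of all probe sets 41% were called in this comparison (limma, adjusted p under 0.05), 21.2% higher and 19.8% lower. With every value under 4 set to 4, the difference was 5.42, or 42.7-fold. In whole seedlings, more cells with the transcript and more transcript per cell cannot be told apart.

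After 2 days of recovery the values were 7.65 and 7.35. Both recovered arrays lay below both arrays taken directly after heat, by at least 1.41 log2 units, and above both mock arrays of that day, by at least 5.18. The mean of 7.50 ± 0.21 (SD, n = 2) stood at least 5.32 ± 0.27 (SE) above the mock plants of that day, which is at least 40.1-fold, with the mock group at the floor. This was the largest rise of all 22746 probe sets after recovery. It was number 2 without heat recovery replicate 1 (5.18) and number 4 with values under 4 set to 4 (3.50). Only 0.237% of probe sets were called in this comparison. Between the end of the stress and the end of recovery the mean fell by 1.91 (SE 0.27), to 0.265 of its level on the linear scale. The comparison of heated plants over 2 days shares its arrays with the others and is likewise a description. Of all probe sets 39.9% were called in it.

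**Figure D1:**
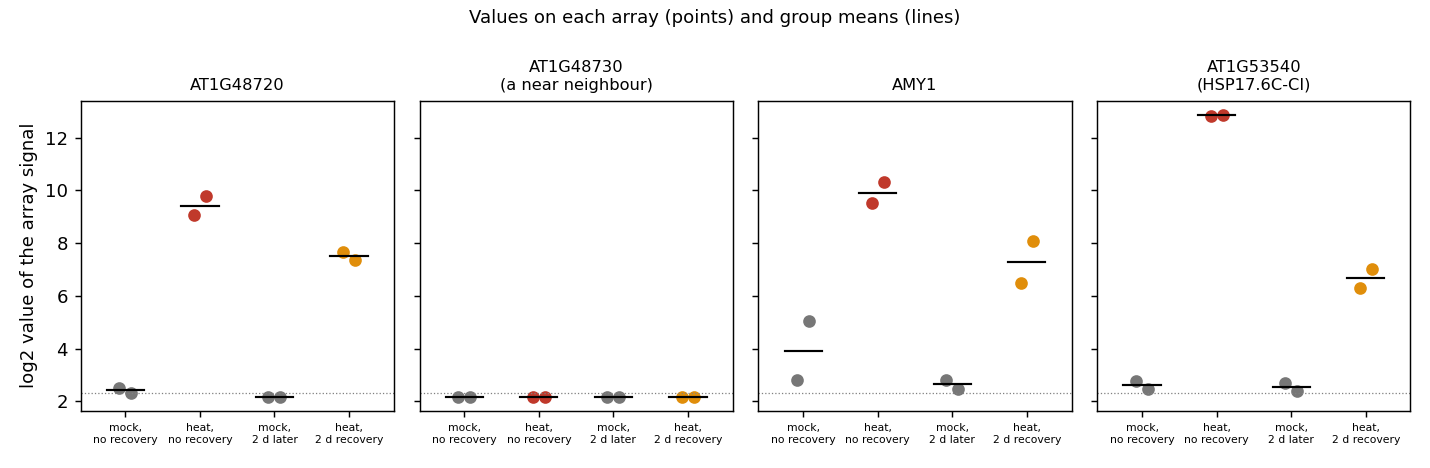
Log2 array values (vertical axis) of AT1G48720, of AT1G48730 near it in the gene order, of AMY1 and of AT1G53540 in the 4 groups. Points are the 2 arrays of a group, lines are group means, and the dotted line is the floor at 2.3. AT1G48720 is at 2.18 to 2.51 in mock plants, 9.06 and 9.78 directly after heat and 7.35 and 7.65 after recovery, and AT1G48730 stays at the floor on all arrays.

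The order of the 4 levels was thus heat without recovery, heat after recovery, mock without recovery and mock 2 days later. Neighbours in that order did not overlap between arrays. However, the last pair differed by less than the standard error of their difference in the fit of all arrays, heated ones included. The value of the 2 replicates differed by 0.72 directly after heat, by 0.30 after recovery and by 0.18 in the earlier mock plants. Leaving out single arrays kept the heat difference between 6.64 and 7.36 and the recovery difference between 5.18 and 5.47.

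**Figure D2:**
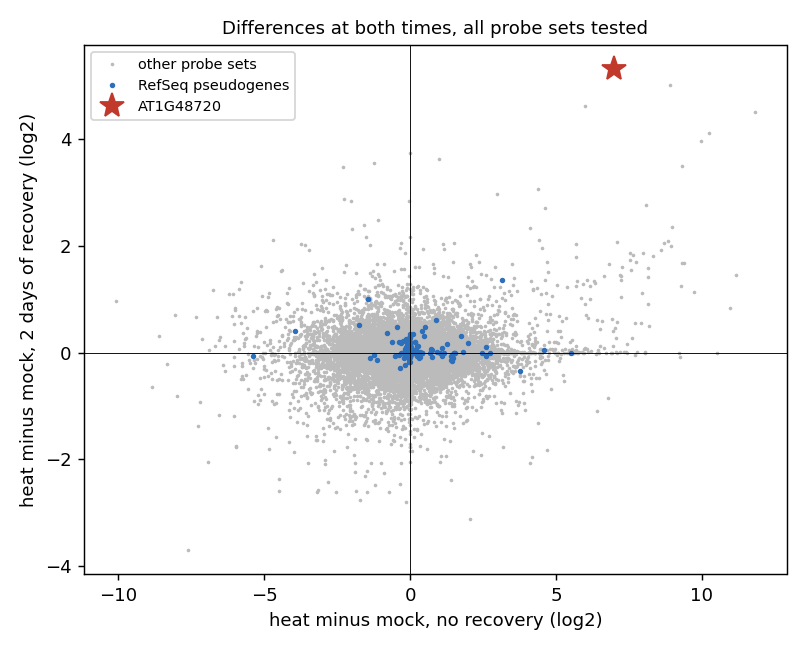
Heat minus mock (log2) without recovery on the horizontal axis and after 2 days of recovery on the vertical axis, with 1 point for each of the 22746 probe sets tested. AT1G48720 (star) stands at 7.0 and 5.32, the highest point on the vertical axis, and the RefSeq pseudogenes (blue) lie at or below 1.36 on that axis.

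Few of the strong rises in heat were still large after recovery. Among the probe sets with 1 gene, 122 were called higher directly after heat by at least 4 log2 units. AT1G48720 is among them through the heat differences it was chosen by, so its place there is a description and not a test. For each, the log2 difference after recovery was set against that before it. The median share left was 1.90%, with quartiles of 0 and 16.5%. AT1G48720 kept 76.1% of its log2 difference, or 26.1% of its rise on the linear scale. It was number 2 of the 122, and 2 of them kept more than 50%. The other one was AMY1, an alpha-amylase that breaks down starch, at 77.2%. Over all probe sets tested, with or without 1 listed gene, 242 were called higher by that much. Of these, 6 kept more than 50%, and AT1G48720 was again number 2. With values under 4 set to 4 the share of AT1G48720 was 64.7%, and single arrays left out gave 72.4% to 80.2%.

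AMY1 varied more than AT1G48720 did. Its values were 2.80 and 5.03 in mock and 9.51 and 10.32 directly after heat, then 2.81 and 2.46 in mock and 6.48 and 8.06 after recovery. Heat and mock did not overlap at either time, but 1 earlier mock array stood well above the other. AT1G48720 came before AMY1 in the share left when that array, mock no-recovery replicate 2, was left out (77.1% for AT1G48720), and likewise without heat no-recovery replicate 1 (72.4%), mock recovery replicate 2 (76.1%) or heat recovery replicate 2 (78.2%). AT1G73040 followed with 43.3%, having log2 differences of 4.51 and 1.96. AT1G53540, the cytosolic small heat shock protein HSP17.6C-CI, kept 40.3%. It had stood higher than mock by 10.23 directly after heat, and its values after recovery were 6.30 and 7.03 against 2.71 and 2.37 in mock.

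**Figure D3:**
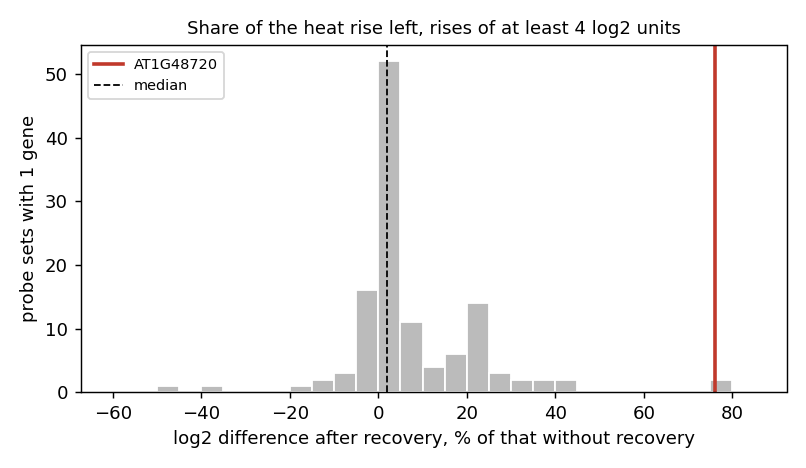
Number of probe sets with 1 gene (vertical axis) by the log2 difference after recovery as a percentage of that without recovery (horizontal axis), for the 122 rises of at least 4 log2 units. The dashed line is the median of 1.90% and the red line is AT1G48720 at 76.1%.

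The loci measured around AT1G48720 had smaller differences than it at both times. After recovery this was given in advance, since AT1G48720 was chosen by its differences and had the largest rise of all probe sets. Of the 25 loci on each side in the RefSeq order, 20 had a probe set of their own. The nearest of these were AT1G48690, at 4 places before AT1G48720, and AT1G48730, at 2 places after it. Both were at the floor on all 8 arrays, as were 7 of the 20 in all. Probe sets that repeated a value above 2.3 on several arrays, as AT1G48870 did at 2.89 and AT1G48780 at 3.12, are not in this count. Directly after heat 8 of the 20 were called higher and 0 lower in limma, against 21.2% of all probe sets called higher and 19.8% called lower, with 10 at an unadjusted p under 0.05. Their median difference was 0.15, beside 0 for all probe sets. AT1G48580, among the 8 called higher, read 2.86 on both earlier mock arrays, without spread, so its SE and p may be too small. The largest rise was that of AT1G48750, from 7.02 and 6.38 to 8.78 and 8.68, a difference of 2.03 ± 0.25 with an adjusted p of 0.0041 in limma. The count of 8 fell to 4 without mock no-recovery replicate 1, and to 5 without mock no-recovery replicate 2 or heat no-recovery replicate 2.

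After recovery 0 of these 20 loci were called in limma, with 3 at an unadjusted p under 0.05, and their differences ran from -0.63 to 0.68. AT1G48840 had the highest, 0.68 ± 0.24, with values of 5.47 and 5.93 against 4.79 and 5.26 in mock. Directly after heat it had stood higher by 0.97 ± 0.24 (limma adjusted p 0.0333, and 0.0843 to 0.143 with single no-recovery arrays left out). Its values correlated with those of AT1G48720 at r = 0.912 over the 8 arrays. A count of 1, called lower, was reached when mock recovery replicate 2 or heat recovery replicate 1 was left out. AT1G48750 stood at 7.49 and 7.33 in recovered plants and at 7.13 and 7.48 in mock, so the groups overlapped.

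**Figure D4:**
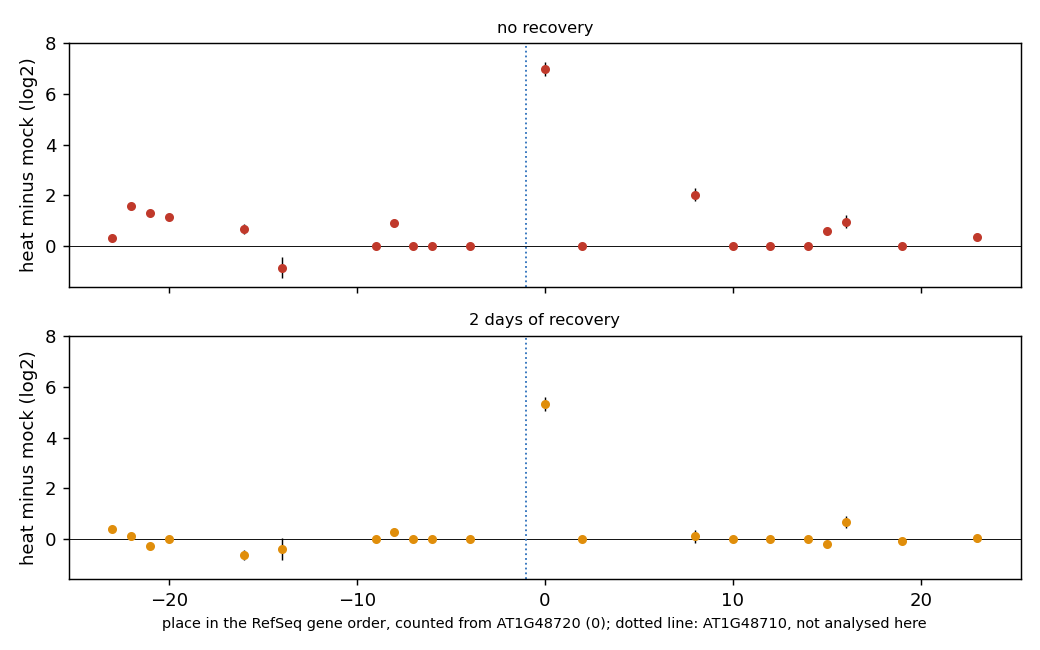
Heat minus mock (log2, with SE bars) of AT1G48720 and of 20 loci around it by their place in the RefSeq gene order, without recovery (top) and after 2 days of recovery (bottom). AT1G48720 stands at 7.0 and 5.32, and none of the others exceeds 2.03 at the first time or 0.68 at the second.

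The 8730 probe sets with no listed gene could not be classed. Among those with 1 listed gene, RefSeq pseudogenes were the closest class, which takes in many transposable element loci as well as other gene remnants. Of their 998 probe sets 852 (85.4%) were at the floor on all 8 arrays, against 25.2% of all probe sets. Directly after heat 27 were called higher and 8 lower in limma, against 21.2% and 19.8% of all probe sets, and the median difference was 0, as for all probe sets. This count of 35 became 74 without mock no-recovery replicate 1, and 61 and 53 without heat no-recovery replicates 1 and 2. The largest rises, named after their values were seen, were those of AT4G05640, from the floor by at least 5.51 ± 0.11, and of AT3G17110, by 4.60 ± 0.38. After recovery their differences were 0 and 0.06. AT1G35050 rose by at least 2.75 ± 0.04 and CYTOSLEEPER by at least 2.47 ± 0.04, both from the floor, whereas AT4G16870 fell by 5.39 or more (SE 0.06), with both heat arrays at the floor. The adjusted p of each of these last 3 was between 1.5e-05 and 2.4e-05 in limma. Arrays at the floor show little or no spread, so the SE and p of any probe set with such arrays may be too small. Directly after heat the SD (n = 2) was 0.07 for AT1G35050, 0.08 for CYTOSLEEPER and 0.22 for AT4G05640. After recovery AT1G35050 and CYTOSLEEPER were back at the floor, with differences of 0.00.

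Of all 22746 probe sets 106 were higher than mock by at least 1 log2 unit at both times, called or not. Among the 998 of pseudogenes a single one, AT1G10260, was. Its probe set, 264451_s_at, also matches several transcripts, and it was singled out after its values were seen. It read 2.28 on all 4 mock arrays, 4.55 and 6.31 directly after heat, and 3.79 and 3.49 after recovery. The first difference, at least 3.15 ± 0.60, was called (limma adjusted p = 0.0151, and up to 0.162 over its alternatives). That call ended when either mock no-recovery replicate was left out, with only the 4 arrays compared and with values under 4 set to 4. The second difference was not called (at least 1.36 ± 0.60, limma adjusted p = 0.485). After recovery 0 of the 998 pseudogene probe sets were called in limma, with 7 at an unadjusted p under 0.05. This count was 7 and 5 without mock recovery replicates 1 and 2, and 18 and 36 without heat recovery replicates 1 and 2.

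Few genes on the lists of heat shock factors, small RNA, DNA methylation and chromatin assembly genes had a probe set listed for them alone. Whether each of them acts on copia elements was not tested. Of 21 heat shock factors, which bind heat elements, and of 24 genes of the small RNA pathway, none had a probe set listed for it alone here. DME, which removes DNA methylation, was the only gene with a listed probe set of its own among 28 for DNA methylation and heterochromatin. Of its 3 probe sets 1 was at the floor on all 8 arrays. The 3 had heat differences between -0.16 and 0.29 without recovery and between -0.11 and 0.08 after it. None of the 3 was called in limma, with 1 at an unadjusted p under 0.05 directly after heat. Of 12 chromatin assembly genes, the histone chaperones ASF1A and ASF1B had log2 differences of 0.16 ± 0.12 and -0.41 ± 0.25 without recovery and of -0.02 ± 0.12 and -0.02 ± 0.25 after it. Neither was called. Without heat no-recovery replicate 1, ASF1B (-0.75) and 1 DME probe set (0.42) were called directly after heat, and another DME probe set above the floor was called without mock no-recovery replicate 2 (-0.35).

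Small heat shock proteins, which keep other proteins from aggregating and are switched on by heat shock factors, gave a measure of the heat response in the same plants. Of the 10 measured, of 18 listed, 8 were called higher and 1 lower directly after heat in limma, with a median of 6.67. After recovery 1 was called, AT1G53540, with 7 at an unadjusted p under 0.05, and the median was 0.14. Directly after heat the shares over the whole array were 21.2% (higher) and 19.8% (lower), and after recovery 0.237% were called in either direction. HSP17.6B-CI (AT2G29500) still stood 3.51 above mock, after 9.32 directly after heat, and HSP15.7 (AT5G37670) 1.22, after 4.33, both uncalled. These 2 were named after their values were seen. In limma, HSP15.7 was called without either heat recovery replicate (adjusted p 0.0317 and 0.0173), and both were called among probe sets reaching 4 on 2 or more arrays (adjusted p 0.00905 and 0.0034). The difference of HSP26.5 went from 6.94 ± 0.07 to 0.13 ± 0.07 and that of HSP22.0, located in the endoplasmic reticulum, from at least 7.43 ± 0.13 to 0.16 ± 0.13. HSP23.5-M, of the mitochondrion, went from at least 8.06 ± 0.08 to 0.02 ± 0.08. HSP15.4 moved the other way, with a difference of -3.23 ± 0.13 and then of -0.65 ± 0.13. The 1 call after recovery ended when any 1 of the 4 no-recovery arrays was left out, and 2 were called when either heat recovery replicate was left out.

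The genes whose course over the 8 arrays was most like that of AT1G48720 were ranked by Pearson correlation among 9419 probe sets with 1 gene that were not at the floor throughout. The first 6 were AT4G31050, SCPL48 (a serine carboxypeptidase-like protein), AT4G39955, AT1G24040, AT3G17780 and AT3G04230, with r from 0.968 to 0.981. Their differences were much smaller, from 0.34 to 1.03 directly after heat and from 0.28 to 0.68 after recovery. The 8 points fall into 4 groups, so r mostly follows the group means, and 109 probe sets had r of at least 0.9. By the distance between the 4 group means, which also takes in how bright each probe set is, the nearest were AMY1 (1.65), AT1G09500 (2.97), nad5 (3.05), AT5G25450 (3.13) and 2 of the probe sets of nad1 (3.20 and 3.27). No gene was among the first 6 of both rankings. The probe set of nad5 named here, 257338_s_at, matches several transcripts. These probe sets of the mitochondrial genes nad5 and nad1, for subunits of respiratory complex I, had differences of 7.54 for nad5 and of 7.54 and 7.22 for nad1 directly after heat, and of 1.87, 1.74 and 1.43 after recovery. Probe sets of these genes disagreed: 3 more of nad1, at 7.04, 6.95 and 7.72 directly after heat, stood at 0.27, 0.41 and -0.04 after recovery, while another of nad5 went from 8.71 to 2.06.

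Among probe sets without 1 listed gene, 247691_at had the highest correlation with AT1G48720 (r = 0.987). It read 2.42 and 2.65 in mock and 11.43 on both arrays directly after heat, then 2.65 and 2.91 in mock and 7.82 and 7.78 after recovery. Its differences were 8.90 ± 0.12 and 5.02 ± 0.12, so it kept less of its log2 rise than AT1G48720 did. The next, 266415_at (r = 0.985), had differences of 4.62 ± 0.28 and 2.72 ± 0.28. It was already bright in mock plants without recovery, at 8.53 and 9.20.

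Transcripts without a messenger's poly(A) tail moved with the heat groups too. The ribosomal 25S control probe set stood at 13.49 ± 0.11 directly after heat and 11.58 ± 0.21 in mock, and at 11.89 ± 0.14 after recovery and 11.74 ± 0.32 in mock (SD, n = 2). The median log2 difference of 25 probe sets of mitochondrial genes was 6.81 directly after heat and 0.28 after recovery. Their part in the signal of AT1G48720 was not tested. The GAPDH signal at the 3' end minus that at the 5' end, which grows as RNA degrades, was 2.95 ± 0.22 directly after heat, 3.19 ± 0.04 in the mock plants of that day, 3.22 ± 0.05 after recovery and 2.98 ± 0.37 in the later mock plants. Array medians were between 5.04 and 5.11, and the correlation of replicates across probe sets was 0.995 to 0.996. The leaf markers LHCB4.2, LHCB4.3, PSAE-1 and PSBY and the root and seedling marker PYK10 were above the floor on every array, while the root-hair markers EXPA7 and EXPA18 were at the floor on all of them. Directly after heat 3 of the 4 leaf markers were called lower and 1 higher, and PYK10 was called lower, where 21.2% of all probe sets were called higher and 19.8% lower. After recovery 0 of these were called in limma, with 0 at an unadjusted p under 0.05.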

How the data were processed

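The authors deposited 1 value per probe set and array, a score on the GCRMA scale (background correction, quantile normalization and log2 summary), per the submitters' processing notes. Its version is not known from these notes. The decimal point was missing from the deposited values (0 of 182480 held one). It was put back behind digit 1, or behind digit 2 where a value starts with 1. No value began with 16 to 20, so each had 1 reading on the log2 scale.

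Of 22810 probe sets 64 controls were left out and 22746 were tested. The platform's table gave 1 gene for 13513, several for 503 and none for 8730. RefSeq (TAIR10.1) was used for names, classes and gene order only, since no build is named for the array in the labels. AT1G48720 was matched to it by locus name.

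In limma 3.58.1 (R 4.3.3) a single fit of 4 group means used all 8 arrays, leaving 4 residual degrees of freedom. P-values (2-sided) were adjusted (Benjamini-Hochberg) across the whole set tested and called under 0.05. The procedure was tested on simulated data. These had spread on every probe set, so arrays at the floor were not mimicked. Same-numbered replicates deviated together little (correlations from -0.14 to 0.17 over 6 pairs, 1 of them over 0.1), so they were not paired. Alternatives were a repeated quantile normalization, a floor of 4, a filter, the 4 arrays compared, a replicate block, a variance trend and single arrays left out. For arrays, their number limits the precision.

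The gene and the lists were chosen with earlier results of these data known. Named genes were the 6 most alike by each measure, the 3 with the largest share left besides AT1G48720, the 3 smallest p in either heat comparison per list plus 1 member that moved against the list, all measured neighbours, and at most 2 unnamed probe sets. The 25 neighbours a side were set with the values in view. None of the 3 flower markers on the lists had a probe set of its own here. Python 3.11.15, pandas 2.3.3 and matplotlib 3.10.9 made the tables and plots.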

Additional observations from a re-analysis of the deposited data

How the results depend on the processing

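The heat differences of AT1G48720 kept their direction under every alternative run, but most of these could not have reversed it. The filter, the 4 arrays compared, the replicate block and the variance trend leave differences of group means as they are. Leaving out 1 array could not reverse gaps of 6.55 and 5.18 between the nearest heat and mock arrays. Setting values under 4 to 4 gave 5.42 without recovery and 3.50 after it, a share left of 64.7%, and 3 and 2 genes shared with the first 6 by correlation and by distance. Spearman correlation shared 0 of the 6, and single arrays left out shared 1 to 4 (correlation) and 3 to 6 (distance), so the names of the most alike genes are insecure. The replicate block, which by design changes no difference, gave 18 calls after recovery, 9 between the mock groups and 0 small heat shock proteins after recovery.

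Calls after recovery numbered 54 against 18 with values under 4 set to 4, 582 when probe sets had to reach 4 on 2 or more arrays (the filter), 1 with only the 4 arrays compared, and 15 to 431 with single arrays left out. Between the mock groups 18 calls became 8 with values under 4 set to 4, 0 with only the 4 arrays compared (1964 at an unadjusted p under 0.05 in the limma fit of all 8) and 4 to 361 with single arrays left out. Small heat shock proteins after recovery numbered 0, 3 and 0 under the floor of 4, the filter and the 4 arrays, and 0 to 2 with single arrays left out. Loci around AT1G48720 gave 4 to 7 calls without recovery and 0 to 1 after it with single arrays left out. Pseudogenes without recovery gave 17, 23 and 23 calls under the floor of 4, the filter (32 tested) and the 4 arrays, and after recovery 1 under the filter. With single arrays left out they gave 31 to 74 and 0 to 36. The causes of these shifts were not tested.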
